A study of Sus scrofa with 6 samples.

Results

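The genes described here are those of the interferon response and of nucleic acid sensing, read at rest in a pair of untreated pig cell lines. A list of 53 such genes was drawn up, and 36 of them had a probe set with exactly 1 gene symbol in the platform annotation, of 6765 genes measured in all. Where a gene had several, the brightest by its mean of the 6 arrays was taken. The members comprise 3 receptor chains, 5 JAK kinases and STATs, 5 interferon regulatory factors, 5 sensors and adaptors, and 18 genes whose products act against viruses or modify the response. The 17 listed genes without such a probe set (IFNGR2, IFIH1, DHX58, TMEM173, TRIM25, TLR3, TLR7, OAS2, OASL, IFIT5, ADAR, IFITM1, IFITM3, BST2, SP100, IFI6 and IFI44) were not analysed here.

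OBGF400 is a cell line labelled as neuroblasts of the porcine olfactory bulb, and PK15 is an established line from pig kidney, labelled as non-neuronal and epithelial. Each line was hybridized to 3 Affymetrix porcine expression arrays, and each array received a pool of RNA, the 9 cultures of a line having been combined into 3 pools. Neither line was treated, and no interferon or virus was added, so every value below is a basal level. Both media held 10% bovine calf serum, but the base medium differed and the PK15 medium alone held amphotericin B, so line and medium cannot be told apart. Replicates are thus culture pools from a single line, and p-values measure the spread between pools and not between animals.

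Cells detect foreign nucleic acid with Toll-like receptors in membranes and with helicases such as RIG-I (DDX58) in the cytosol, which signal through adaptors to IRF3 and IRF7 and so switch on interferon genes. Secreted type I interferon binds a receptor made of IFNAR1 and IFNAR2, and interferon gamma binds IFNGR1 with IFNGR2. The receptor-bound kinases JAK1, JAK2 and TYK2 then phosphorylate STAT proteins, and STAT2 and IRF9 act in the complex that induces the interferon-stimulated genes. Neurons and epithelial cells both depend on this system when viruses enter them.

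The markers of the lines bear on every comparison that follows. All 7 simple-epithelium markers were lower in OBGF400, among them KRT8, KRT18 and PERP. Of 7 measured neuroblast and neuron markers, UCHL1, NCAM1 and MAP2 were higher and STMN1 was lower. ELAVL4, NEFL and GAP43 were at the lower limit of the table on all 6 arrays. The summed signal of these 7 was 12.80 to 12.91 (log2) in OBGF400 and 11.75 to 11.95 in PK15. Each sum rests mostly on 1 gene, UCHL1 in OBGF400 (mean 12.34) and STMN1 in PK15 (mean 11.85). DCX, TUBB3, SOX2 and NES, which would define neuroblasts most directly, were not analysed here. Fibroblast, pericyte and smooth muscle markers were higher in OBGF400 for 6 of 7, with ACTA2, CNN1 and POSTN leading, and their summed signal lay at 15.98 to 16.02 (log2) against 5.45 to 5.89 in PK15. Of 9 measured leukocyte markers 3 were higher in OBGF400 (TYROBP, CD3E and CD14) and 3 were lower (LAPTM5, AIF1 and SPI1). PTPRC, CD163 and ITGB2 were at the lower limit in both lines. The summed leukocyte signal was 7.71 to 7.80 in OBGF400 and 11.85 to 11.96 in PK15. Of 5 endothelial markers, CDH5 was lower in OBGF400 and none was higher, with VWF, KDR and TEK at the lower limit and a summed signal of 4.46 to 4.50 against 4.96 to 5.85. The part of these marker differences in the results below was not tested. In bulk RNA, fewer cells of a kind and less RNA per cell cannot be told apart.

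Signals are log2 values, and the table has a lower limit of 2.13 that is called the floor here. A gene is said to be at the floor of a line if its 3 arrays there all read within 0.1 of that limit, and the size of its difference then rests on the limit itself. Each difference is the OBGF400 mean less the PK15 mean (log2), with the moderated standard error (SE) of limma. A gene is called higher or lower when its adjusted p (limma, Benjamini-Hochberg over all 6765 genes) is under 0.05. Low signals can inflate a log2 difference, so for the called genes described the difference after adding 32 to the linear values is given where it is smaller by over 1.5-fold. All 36 members entered the test, with no filter on low values.

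The interferon and sensing genes were divided between the lines. Of 36 members, 13 (36.1%) were higher in OBGF400, against 23.9% of all genes, and 8 (22.2%) were lower, against 36.8% of all genes. The total called, 58.3%, lay near the 60.8% of all genes. At least 2-fold differences were found for 9 members higher (25%, against 13.8% of all genes) and 5 lower (13.9%, against 22.0%). The median difference of the members was 0.16, and that of all genes was 0.00. For 23 members no array of one line fell in the range of the other (63.9%), against 66.9% of all genes. The members at the floor in both lines numbered 5 (13.9%), against 15.5% of all genes.

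These counts depend on how the arrays are scaled to each other, and the sets of control RNA on the arrays gave opposite shifts. Scaling on the hybridization controls moved the median difference of all genes above the floor from -0.16 to 0.66, and scaling on the poly-A controls (dap and thr) moved it to -1.01. Genes at the floor on all arrays were left out of these scalings, so 31 members and 5718 genes were fitted. The members then split into 25 higher and 3 lower in the first case, where 3401 of all genes were higher and 1226 lower. In the second case 9 members were higher and 19 lower, where 748 of all genes were higher and 4146 lower. After median centring 20 members were higher and 7 lower, and 2529 of all genes were higher. On both control scales the member counts include IRF7, IFIT2, ZC3HAV1, MX2, GBP2 and PML. These were not called as deposited and repeat 1 value on several arrays, so their calls there largely repeat the shift. Of the 21 called members, 12 (9 higher and 3 lower) kept their call and direction under all 4 scalings tried. The higher ones were IFNAR1, IFNAR2, IFNGR1, STAT3, IRF9, DDX58, MX1, GBP1 and USP18, and the lower ones were IRF3, ISG20 and IFI44L. All of these but DDX58 also kept their call under each of the 18 alternatives in which they were fitted.

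**Figure D1:**
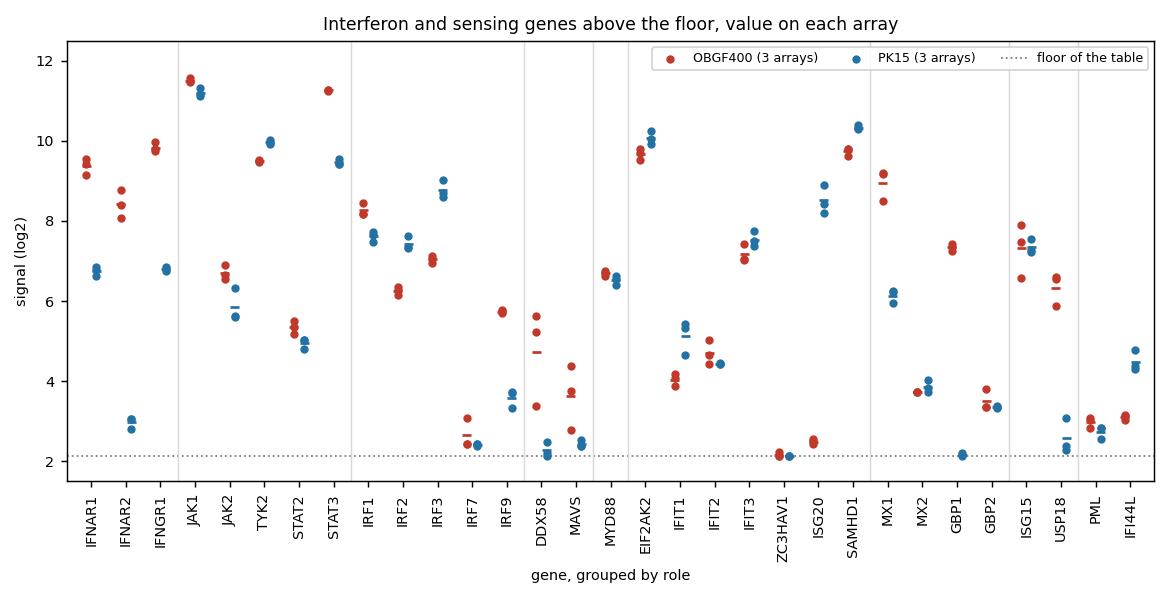
Signal (log2, vertical axis) of the 31 interferon and sensing genes above the floor, with 1 point per array, a bar at the mean of the 3 arrays, OBGF400 in red and PK15 in blue, and grey lines between roles. The receptor genes at the left sit 2.63 to 5.45 higher in OBGF400, while ISG20 sits at 2.42 to 2.56 in OBGF400 and 8.21 to 8.90 in PK15.

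The 3 measured receptor chains for type I interferon and interferon gamma were all higher in OBGF400, also under each of the 4 scalings tried, where 23.9% of all genes were higher as deposited. IFNAR1, a chain of the type I interferon receptor, read 9.55, 9.41 and 9.16 on the OBGF400 arrays and 6.62, 6.84 and 6.77 on the PK15 arrays. The lines did not overlap, and the difference was 2.63 (SE 0.12, adjusted p = 8.2e-05 by limma), a 6.18-fold ratio. IFNAR2, the chain that binds type I interferon most tightly, read 8.40, 8.78 and 8.08 in OBGF400 against 3.06, 3.06 and 2.80 in PK15. Every PK15 array was within 1 log2 unit of the floor, and the difference was 5.45 (SE 0.21, limma adjusted p = 4.5e-05), or 3.23 with 32 added. A second IFNAR2 probe set gave 7.15, 7.65 and 7.18 against 3.09, 3.05 and 3.89, a difference of 3.98 in the same direction. IFNGR1, the ligand-binding chain of the interferon gamma receptor, read 9.75, 9.79 and 9.96 in OBGF400 and 6.81, 6.86 and 6.75 in PK15. Its difference was 3.03 (SE 0.07, limma adjusted p = 9.4e-06), with all OBGF400 arrays above all PK15 arrays.

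The receptor genes of the type I family lie close together in the pig genome, but their neighbour differed the other way. In RefSeq's gene order IL10RB, a chain shared by the interleukin-10 and type III interferon receptors, is the 1 protein-coding gene between IFNAR1 and IFNAR2. IL10RB read 2.13, 2.32 and 2.64 in OBGF400 and 4.91, 4.66 and 4.20 in PK15, a difference of -2.23 (limma adjusted p = 0.0012) that shrank to -0.60 with 32 added. Similar unequal neighbours were found among the effectors, where MX1 and MX2 are adjacent, as are GBP1 and GBP2, and MX1 and GBP1 but not MX2 and GBP2 were called. Control scalings did call MX2 and GBP2, as higher on the hybridization controls and lower on the poly-A controls.

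Kinases and STATs differed less, apart from STAT3. Of 5 measured, 4 were higher and 1 lower, where 23.9% of all genes were higher and 36.8% lower (5 higher when scaled on the hybridization controls, 1 higher and 3 lower on the poly-A controls). STAT3, which carries interleukin-6 family signals and can also be activated by interferon, averaged 11.26 ± 0.02 on the OBGF400 arrays against 9.46 ± 0.08 on those of PK15 (SD, n = 3). Its arrays read 11.26, 11.28 and 11.24 against 9.41, 9.55 and 9.43, and the difference of 1.80 (SE 0.04, limma adjusted p = 1.1e-05) was the largest of this group by the probe sets that stood for the genes. JAK1, the kinase used by both interferon receptors, was at 11.51 ± 0.05 and 11.20 ± 0.11 (SD, n = 3), a difference of 0.31 (limma adjusted p = 0.015). That difference became -0.55 under poly-A control scaling, and its call was lost without OBGF400 replicate 3 (0.28), or without PK15 replicate 3 (0.29). STAT2, a partner of IRF9, was at 5.35 ± 0.16 and 4.95 ± 0.12 (SD, n = 3), a difference of 0.40 (limma adjusted p = 0.029), or 0.21 with 32 added. On the poly-A control scale it was -0.46. Leaving out OBGF400 replicate 1 (0.32) or 3 (0.40), or PK15 replicate 1 (0.33), 2 (0.43) or 3 (0.43), ended the STAT2 call, as did quantile normalization (0.32).

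Probe sets of JAK2 differed in the size of the difference, and those of TYK2 differed in its sign. JAK2, the kinase of the interferon gamma and many cytokine receptors, was at 6.70 ± 0.18 and 5.84 ± 0.41 (SD, n = 3) by the probe set with the highest mean, a difference of 0.85 (limma adjusted p = 0.036). The call did not survive leaving out OBGF400 replicate 1 (0.88), 2 (0.75) or 3 (0.93) or PK15 replicate 2 (0.74) or 3 (0.73), and the difference became 0.00 under poly-A control scaling. The other JAK2 probe set separated the lines more widely, with 6.93, 7.30 and 6.99 against 4.82, 4.71 and 4.75, a difference of 2.32. Tested over all probe sets, that one was called higher (limma adjusted p = 0.00017), and the one with the highest mean was not called (limma adjusted p = 0.054). TYK2, the kinase bound to IFNAR1, was the single member with called probe sets of opposite sign, of 15 with more than 1 tested probe set. Of all probe sets 41.9% were called in either direction, but the share of genes with called probe sets of opposite sign was not counted. The probe set that stood for TYK2 read 9.49, 9.46 and 9.53 in OBGF400 and 9.91, 10.02 and 9.95 in PK15. Its difference was -0.46 (limma adjusted p = 0.00036) and became 0.36 under hybridization control scaling. Others gave -1.50 and 1.27, both called, while the last one lay at the floor on all arrays. No direction can therefore be given for TYK2 as a gene.

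Interferon regulatory factors went both ways, with 2 of 5 higher and 2 lower, beside the same 23.9% and 36.8% of all genes (3 and 1 when scaled on the hybridization controls, 1 and 3 when scaled on the poly-A controls). IRF9, a DNA-binding subunit of the complex with STAT2, read 5.75, 5.77 and 5.69 in OBGF400 and 3.74, 3.70 and 3.32 in PK15. The arrays did not overlap, and the difference was 2.15 (SE 0.13, limma adjusted p = 0.00017), or 0.95 with 32 added. IRF3, which is present before infection and relays the signal of the sensors, read 7.06, 6.96 and 7.12 against 8.60, 9.03 and 8.70. It was thus lower in OBGF400 on every array, with a difference of -1.72 (SE 0.13, limma adjusted p = 0.00036). IRF2, which can repress interferon genes, was at 6.26 ± 0.10 and 7.43 ± 0.16 (SD, n = 3), a difference of -1.17 that was not called under hybridization control scaling (-0.34). IRF1, an activator induced by interferon gamma, was at 8.27 ± 0.15 and 7.61 ± 0.13 (SD, n = 3), a difference of 0.66 (limma adjusted p = 0.0053), which turned to -0.20 under poly-A control scaling. IRF7, the inducible factor that amplifies type I interferon production, read 2.44 within 0.01 on 4 of 6 arrays and was not called (difference 0.23, limma adjusted p = 0.41).

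**Figure D2:**
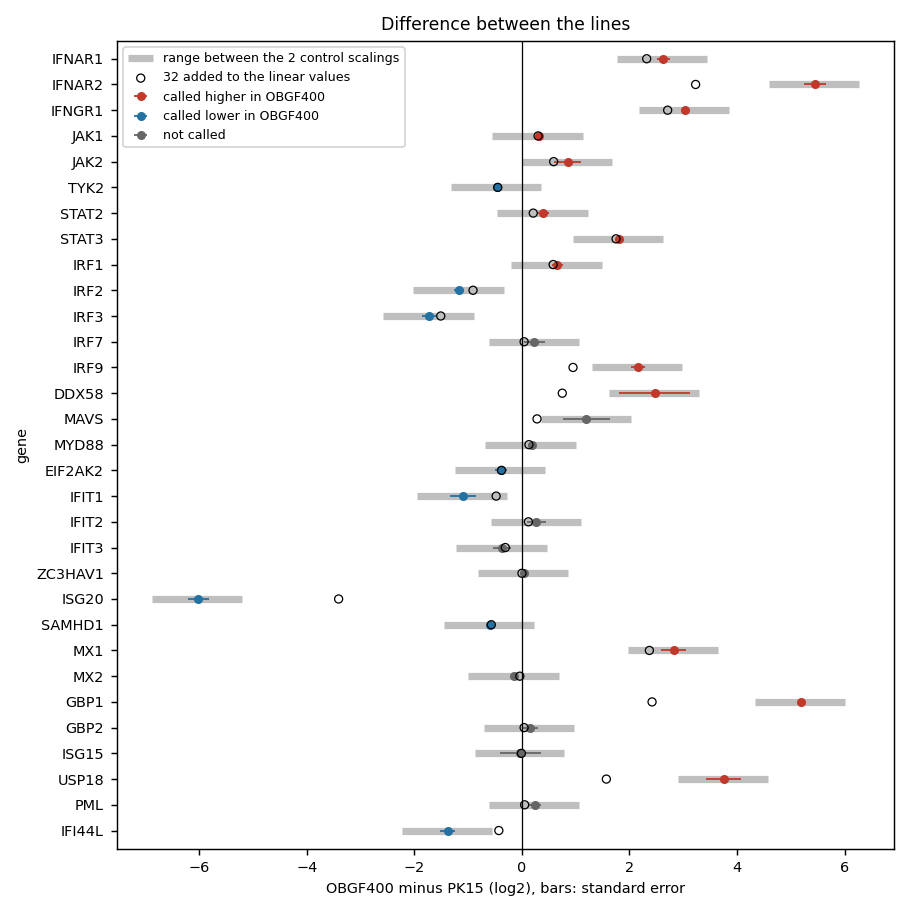
Difference OBGF400 minus PK15 (log2, horizontal axis) of the 31 genes above the floor, with SE bars, red for higher, blue for lower and grey for not called, open circles for the difference with 32 added, and grey bands from poly-A to hybridization control scaling. Among called genes, the bands of IFNAR1, IFNAR2, IFNGR1, STAT3, IRF9, DDX58, MX1, GBP1 and USP18 stay right of 0, and those of IRF2, IRF3, IFIT1, ISG20 and IFI44L stay left of it.

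Sensors were low or not resolved in both lines. DDX58, which encodes the RNA helicase RIG-I, read 5.22, 3.37 and 5.63 in OBGF400 and 2.48, 2.20 and 2.13 in PK15. The OBGF400 arrays were all higher but spread over more than 2 log2 units, and the difference was 2.47 (SE 0.66, limma adjusted p = 0.029). With 32 added it fell to 0.75 and was not called, and leaving out OBGF400 replicate 1 (2.23) or 3 (2.03), or PK15 replicate 1 (2.57), 2 (2.43) or 3 (2.40), also ended the call. A second DDX58 probe set read only 2.43, 2.59 and 2.33 in OBGF400 and was at the floor in PK15. Its difference was 0.31, called higher over all probe sets. MAVS, the mitochondrial adaptor of RIG-I, read 4.37, 3.75 and 2.79 in OBGF400 and 2.38, 2.38 and 2.54 in PK15. The arrays did not overlap, yet the difference of 1.20 (SE 0.44), or 0.28 with 32 added, was not called (limma adjusted p = 0.072). It was called without OBGF400 replicate 3 (1.63), when genes at the floor were left out (1.20), after median centring (1.47) and under hybridization control scaling (2.03).

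The 2 measured Toll-like receptor members were at the floor. All 5 probe sets of TLR4, the receptor for bacterial lipopolysaccharide, and the probe set of TLR8, an endosomal receptor for RNA, were at the floor on all 6 arrays. The adaptor MYD88, which serves most Toll-like receptors, averaged 6.69 ± 0.07 against 6.52 ± 0.11 (SD, n = 3). Its difference of 0.18 was not called (limma adjusted p = 0.11), and its sign followed the scaling, with 1.00 on the hybridization controls and -0.68 on the poly-A controls. Floor values do not show that a receptor is absent, since no detection calls were used.

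Among effectors that act on RNA, none of 9 was higher in OBGF400 and 4 were lower (44.4%, against 36.8% of all genes). When scaled on the hybridization controls 4 were higher and 1 was lower, and on the poly-A controls none was higher and 7 were lower. ISG20, an exonuclease that degrades single-stranded RNA, had the largest fall of the members. It read 2.50, 2.42 and 2.56 in OBGF400 and 8.43, 8.90 and 8.21 in PK15, a difference of -6.02 (SE 0.20, limma adjusted p = 2.9e-05), or -3.41 with 32 added. All OBGF400 arrays lay within 1 log2 unit of the floor, and the ratio of 65.0-fold depends on it. SAMHD1, which depletes the nucleotides that viruses need, was at 9.74 ± 0.10 and 10.33 ± 0.05 (SD, n = 3), so that OBGF400 was lower by a difference of -0.59, which turned to 0.23 under hybridization control scaling. EIF2AK2 encodes PKR, the kinase that halts translation when it binds double-stranded RNA, and was at 9.68 ± 0.14 and 10.07 ± 0.15 (SD, n = 3). Its difference of -0.39 (limma adjusted p = 0.035) became 0.43 under hybridization control scaling. Median centring ended the EIF2AK2 call (-0.13), as did leaving out OBGF400 replicate 2 (-0.32) or 3 (-0.40) or PK15 replicate 1 (-0.41) or 3 (-0.31).

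IFIT genes encode proteins that bind viral RNA, and the 3 measured ones are neighbours in RefSeq's gene order. IFIT1, which recognises RNA with an incompletely capped end, was lower in OBGF400 by all 3 of its probe sets. The probe set that stood for it read 4.18, 3.87 and 4.07 against 5.42, 4.66 and 5.32 in PK15, a difference of -1.09 (SE 0.24, limma adjusted p = 0.014), or -0.48 with 32 added. It was no longer called without OBGF400 replicate 2 (-1.01), or without PK15 replicate 3 (-1.0), or under hybridization control scaling (-0.27). The other probe sets read 2.27 on each OBGF400 array against 6.37, 5.61 and 5.91, and 2.14, 2.14 and 2.15 against 5.97, 5.42 and 6.16. Their differences of -3.69 and -3.70 were larger in size than that of the probe set with the highest mean. IFIT3, which stabilises IFIT1, was at 7.17 ± 0.23 and 7.54 ± 0.19 (SD, n = 3), a difference of -0.37 with overlapping arrays that was not called (limma adjusted p = 0.12). It was called without OBGF400 replicate 2 (-0.50). IFIT2 read 4.42 within 0.01 on 3 of 6 arrays and was not called (difference 0.27, limma adjusted p = 0.24).

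OAS1, an oligoadenylate synthetase that activates RNase L, and RSAD2, which encodes viperin, were at the floor in both lines. RSAD2 is also represented by 3 array control probe sets, left out of the tests, of which 1 read 2.45 on all 6 arrays and the others were at the floor. ZC3HAV1, the zinc finger antiviral protein, was at the floor in PK15 and at 2.13, 2.13 and 2.24 in OBGF400, and was not called.

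**Figure D3:**
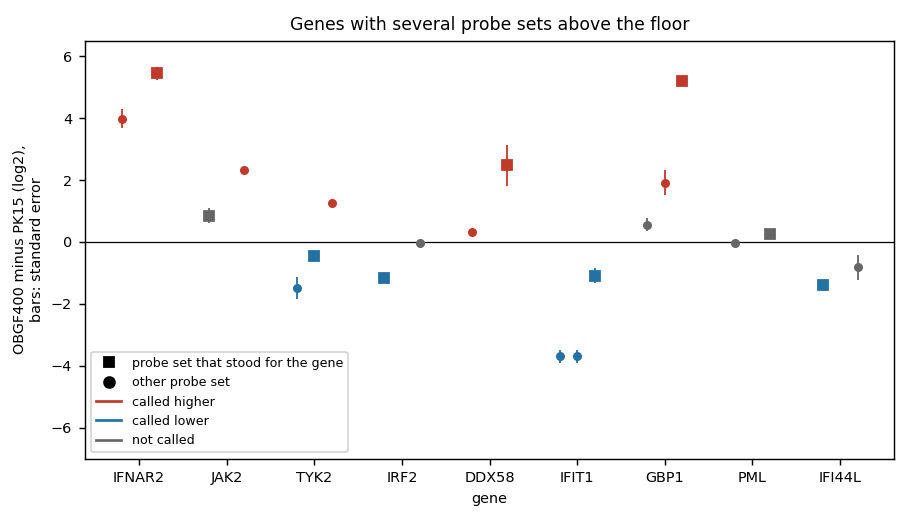
Difference OBGF400 minus PK15 (log2, vertical axis, SE bars) of each probe set above the floor, for the 9 genes with more than 1 such probe set, where squares mark the probe set that stood for the gene and colours mark the call over all probe sets. The 3 probe sets of IFIT1 are all below 0 at -1.09, -3.69 and -3.70, whereas those of TYK2 lie at -1.50, -0.46 and 1.27.

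Of 4 antiviral GTPase genes 2 were higher in OBGF400, against 23.9% of all genes, and none was lower. Under hybridization control scaling 4 were higher, and under poly-A control scaling 2 were higher and 2 lower. MX1, a dynamin-like GTPase that blocks the nucleoproteins of influenza and other viruses, read 8.51, 9.18 and 9.19 in OBGF400 and 5.94, 6.24 and 6.22 in PK15. The lines were clearly apart on every array, and the difference was 2.82 (SE 0.23, limma adjusted p = 0.00048), a 7.08-fold ratio. MX2, its neighbour, was at 3.72 on each OBGF400 array and at 4.04, 3.72 and 3.82 in PK15, and was not called (difference -0.14, limma adjusted p = 0.26). GBP1, a guanylate-binding GTPase typically induced by interferon gamma, read 7.43, 7.26 and 7.36 in OBGF400 and was at the floor in PK15 with 2.15, 2.20 and 2.13. The difference was 5.19 (SE 0.05, limma adjusted p = 9.3e-07), or 2.42 with 32 added. Of its other probe sets, 1 was called higher by 1.91 and 1, at 0.56, was not called. GBP2, its neighbour in RefSeq's gene order, was at 3.50 ± 0.26 and 3.35 ± 0.02 (SD, n = 3) and was not called (difference 0.15, limma adjusted p = 0.46).

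The ISG15 system was uneven. ISG15, a ubiquitin-like modifier, read 6.57, 7.89 and 7.48 in OBGF400 and 7.28, 7.54 and 7.22 in PK15, so the PK15 values lay within the OBGF400 range. The difference was -0.03 (SE 0.38, limma adjusted p = 1), with a sign set by the scaling (0.79 on the hybridization controls and -0.88 on the poly-A controls). USP18, which removes ISG15 from proteins and damps signalling at IFNAR2, read 5.87, 6.54 and 6.59 in OBGF400 and 3.08, 2.29 and 2.37 in PK15. Its arrays did not overlap, and the difference was 3.75 (SE 0.32, limma adjusted p = 0.00056), or 1.57 with 32 added. MX1, ISG15 and USP18 each had their lowest OBGF400 value in replicate 1, whereas DDX58 had it in replicate 2.

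Of the remaining interferon-induced genes, IFI44L was lower in OBGF400 and none was higher, although PML was called higher after median centring and under hybridization control scaling, and lower under poly-A control scaling (-0.61). IFI44L, a gene commonly used as a marker of interferon exposure, averaged 3.11 ± 0.06 against 4.49 ± 0.25 (SD, n = 3). Its difference was -1.38 (SE 0.14, limma adjusted p = 0.00099), or -0.43 with 32 added, and a second probe set, at -0.82, was not called. PML, the organiser of nuclear bodies that restrict DNA viruses, was at 2.98 ± 0.14 and 2.73 ± 0.15 (SD, n = 3) and was not called (limma adjusted p = 0.13). XAF1, an apoptosis-promoting gene, was at the floor in both lines. Among the 10 members that were above the floor but not called, IRF7, IFIT2, ZC3HAV1, MX2, GBP2 and PML had 1 value in common, within 0.01, on at least 3 of the 6 arrays, and an SD near 0 there is no measure of precision.

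Further genes of the pathway, from a list of 96 symbols, were measured for 43. Of these, 6 were higher in OBGF400 and 16 lower (17 and 9 when scaled on the hybridization controls, 2 and 26 when scaled on the poly-A controls). The first pair makes 14.0% and 37.2% of the list, beside 23.9% and 36.8% of all genes. The interferon genes IFNB1 and IFNG were at the floor on all arrays, and 11 of the 43 were at the floor in both lines, including TLR1, TLR2, TLR6, NFKB1 and IRF8. The number of the 43 called higher fell from 6 to 3 without OBGF400 replicate 2, and likewise without PK15 replicate 1.

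The list groups 14 measured genes as other interferon-induced genes, and whether interferon induces each of them was not tested. Of these 14, 9 were lower in OBGF400 (64.3%, against 36.8% of all genes) and 2 were higher (14.3%, against 23.9%). The counts varied with the scaling (7 and 4 when scaled on the hybridization controls, 11 and 1 on the poly-A controls), and the median difference was -1.39 as deposited. LGALS9, which encodes the lectin galectin-9, read 2.29, 3.41 and 2.92 in OBGF400 and 6.49, 6.96 and 6.88 in PK15. It had the largest fall of the further genes, at -3.90 (limma adjusted p = 0.00054), or -1.84 with 32 added. PARP9, an ADP-ribosyltransferase family member that works with DTX3L, differed by -3.46 (-2.07 with 32 added). The scramblase gene PLSCR1 differed by -2.79, the nuclear body gene SP110 by -2.29 (-0.93 with 32 added) and TDRD7 by -2.14 (-0.86 with 32 added). IFRD1, at 1.59, and NAMPT, at 0.43, were the higher genes of this grouping, and NAMPT became -0.42 under poly-A control scaling.

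Signal transducers and sensing kinases of the further list were mixed. The transcription factor gene STAT6, which serves interleukin-4, was higher at 4.09, 5.92 and 6.12 against 3.31, 3.12 and 3.11, a difference of 2.20 (limma adjusted p = 0.033). It was no longer called with 32 added (0.91), or without OBGF400 replicate 2 (1.93) or 3 (1.82), or without PK15 replicate 1 (2.26), 2 (2.16) or 3 (2.16). TANK, which binds the kinase TBK1, was higher by 1.06, though not under poly-A control scaling (0.20). The helicase gene DHX9 (0.67) and PIAS1 (0.54), a SUMO ligase, were higher and became -0.18 and -0.32 under poly-A control scaling. DHX9 was no longer called without OBGF400 replicate 1 (0.70) or 2 (0.60), or without PK15 replicate 1 (0.69). PIAS1 was no longer called without OBGF400 replicate 1 (0.50), 2 (0.56) or 3 (0.55), or without PK15 replicate 1 (0.41) or 3 (0.52).

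**Figure D4:**
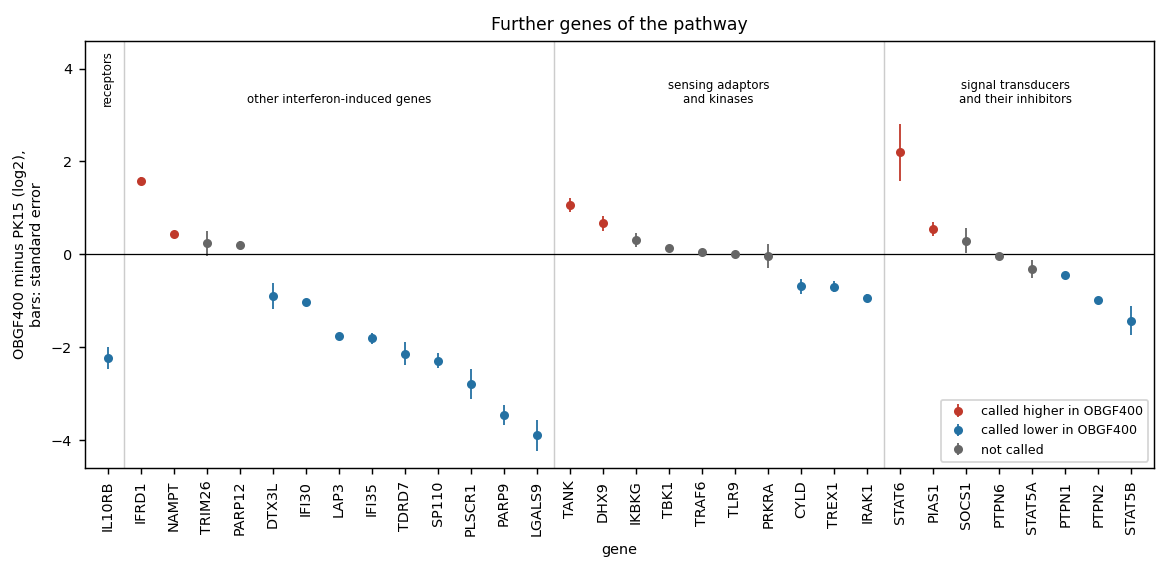
Difference OBGF400 minus PK15 (log2, vertical axis, SE bars) of the 32 further pathway genes that were above the floor, grouped by role and ordered within each group, red for higher, blue for lower and grey for not called. In the group of other interferon-induced genes 9 points in blue run from -0.90 to -3.90, and 2 points in red lie at 1.59 and 0.43.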

How the data were processed

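RNA of OBGF400 and PK15 was measured on 6 arrays, 3 per line, each labelled with biotin from 8 µg of pooled RNA. Values are log2 signals, deposited by the authors for each probe set on each array. Per the submitters' processing notes the package affy was used. How background was corrected and arrays were normalized is not stated there. The arrays had means of 5.41 to 5.42, and 35.2% to 36.0% of probe sets lay within 0.1 of the floor. The number of arrays limits the precision.

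Of 24123 probe sets, 124 controls were left out. Symbols came from the platform annotation, with 10069 probe sets of 1 symbol, 198 of several and 13732 of none, and all 36 members were found by Entrez number in RefSeq (Sscrofa11.1), with 0 renamed. Coordinates are not given here. Testing used lmFit and eBayes of limma 3.58.1 (two-sided) in R 4.3.3, with tables prepared in Python 3.11.15, and the script was tested on simulated data. With 3 arrays against 3 a single-gene permutation test cannot pass the threshold, so p-values come from limma.

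The members and lists were chosen with earlier results of these data known. Array values were to be given for members called with a difference of at least 2 or with called probe sets of opposite sign, and up to 6 further genes in each direction were to be named. Array values of STAT3, IRF3, IFIT1, ISG15 and uncalled members, and some further genes, were added after values were seen. The alternatives were quantile normalization, median centring and both control scalings (27 hybridization and 18 poly-A probe sets), these last 3 without genes at the floor, filters on dim genes at the 25th percentile and the median, leaving out genes at the floor, trended and robust variance, 32 added, the mean of probe sets, an adjusted p of 0.01, the replicate block and leaving out each array.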

Additional observations from a re-analysis of the deposited data

How the results depend on the processing

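The number of genes called was 4112 of 6765 as deposited and stayed within 1.5-fold under every alternative, but the split moved. As deposited 1620 were higher and 2492 lower. Median centring and the control scalings were fitted to 5718 genes. Of these, 2529 were higher after median centring. Scaled on the hybridization controls 3401 were higher and 1226 lower, and on the poly-A controls 748 were higher and 4146 lower. The members called higher, 13, became 20 after median centring and 25 under hybridization control scaling, and those called lower, 8, became 3 under hybridization and 19 under poly-A control scaling. With genes under the median signal left out, 9 members were tested, 5 higher and 4 lower. Of 13 further pathway genes tested under that filter, 6 were lower. The share of all genes called under the filter is not given here, so whether these counts are unusual cannot be told. Further genes called higher, 6, became 12 after median centring, 17 and 2 under hybridization and poly-A control scaling, and 3 at an adjusted p of 0.01. Those called lower, 16, became 9 under hybridization and 26 under poly-A control scaling. Without each array in turn, 9 to 12 members were higher and 6 to 8 lower, and 3 to 6 further genes were higher and 13 to 15 lower.

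Differences changed sign under hybridization control scaling for TYK2 (0.36), EIF2AK2 (0.43), IFIT3 (0.46), SAMHD1 (0.23), MX2 (0.68) and ISG15 (0.79). They changed sign under poly-A control scaling for JAK1 (-0.55), STAT2 (-0.46), IRF1 (-0.20), IRF7 (-0.62), MYD88 (-0.68), IFIT2 (-0.58), ZC3HAV1 (-0.82), GBP2 (-0.71), PML (-0.61), DHX9 (-0.18), PIAS1 (-0.32) and NAMPT (-0.42). These scalings shift all genes of an array alike, and which scale is right was not tested. For IRF7, IFIT2, ZC3HAV1, MX2, GBP2 and PML, which repeat 1 value on several arrays, the scaled differences largely repeat that shift.

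Deviations of same-numbered arrays correlated at 0.03, -0.01 and 0.01, and OBGF400 replicate 2 correlated best with PK15 replicate 3 (0.04). The values thus gave no sign of pairing by replicate number. Whether same-numbered pools were handled together cannot be told from them. With the replicate block 9 members were higher and 9 lower, and the further pathway genes called higher fell from 6 to 3.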
